A study of Homo sapiens with 13 samples.

Results

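The genes described here encode the proteasome: the subunits of its core and regulatory particles, its other activators and an inhibitor, and the factors that assemble it. Of 41 genes listed, 40 matched a row of the count table of 56238 rows by Ensembl identifier, and all 40 were among the 20320 genes tested. PSMB3, a subunit of the inner core ring, was not analysed here. Expression was measured by RNA sequencing in 13 lines of 293T, a human embryonic kidney cell line, kept in Opti-MEM with newborn calf serum. Every line, controls included, had received plasmids for Cas9 and guide RNA with a single-stranded DNA repair template, had passed a short puromycin selection and had been grown from 1 sorted cell. The lines were edited at rs199643834, which changes the coding sequence of FLCN (folliculin). By the genotype label, 4 lines were REF/REF/REF (WT), 7 were ALT/REF/REF (HET) and 2 were ALT/ALT/ALT (HOM). Each library was therefore 1 clone, and a genotype cannot be told apart from what else its clones do not share.

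The proteasome degrades proteins that carry ubiquitin chains. Its core is a barrel of stacked rings: the outer rings of alpha subunits (PSMA genes) gate the entry, and the inner rings of beta subunits (PSMB genes) hold the catalytic sites of PSMB5, PSMB6 and PSMB7. The regulatory particle caps the barrel, with a base of ATPases (PSMC genes), scaffolds and ubiquitin receptors, and a lid whose subunit PSMD14 removes ubiquitin. Subunits are needed in fixed ratios, and in mammalian cells the transcription factor NFE2L1 raises their genes together through antioxidant response elements when proteasome activity is low.

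The stretch upstream of the start was available from RefSeq (GRCh38.p14) for 35 of the 41 genes, and 4 are printed because they belong to the 2 genes with the lowest p in HOM against WT and to the genes with the largest and smallest spread among the clones. Each is 150 bases, 5′ to 3′ on the plus strand, which is the strand of all 4 genes, and ends just before the listed start. PSMD3 lies at chr17:39980657-39980806, ADRM1 at chr20:62302746-62302895, PSMA3 at chr14:58244693-58244842 and PSMD8 at chr19:38374421-38374570. Capitals mark the searched motifs on either strand: TGACNNNGC, the core of the antioxidant response element, ATTGG, the CCAAT box read on the other strand, and CCGGAAG, bound by ETS factors.
PSMD3: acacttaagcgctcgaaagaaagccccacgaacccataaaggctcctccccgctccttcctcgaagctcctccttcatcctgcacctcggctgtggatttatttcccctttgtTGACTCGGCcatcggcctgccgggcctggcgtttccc
ADRM1: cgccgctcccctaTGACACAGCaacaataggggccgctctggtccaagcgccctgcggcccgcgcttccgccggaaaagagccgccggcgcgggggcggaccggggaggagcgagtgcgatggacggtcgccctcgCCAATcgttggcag
PSMA3: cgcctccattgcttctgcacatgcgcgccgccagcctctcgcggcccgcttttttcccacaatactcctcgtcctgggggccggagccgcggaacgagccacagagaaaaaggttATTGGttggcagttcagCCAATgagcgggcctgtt
PSMD8: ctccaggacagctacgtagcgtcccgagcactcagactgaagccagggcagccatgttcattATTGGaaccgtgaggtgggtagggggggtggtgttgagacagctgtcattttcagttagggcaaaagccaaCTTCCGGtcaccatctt
PSMD3 held the antioxidant response element core at position -37 from the start, and ADRM1 held it at -137. PSMA3 held a CCAAT box in each direction, at -35 and -18, and PSMD8 held an ETS motif at -17. In the window from 250 bases before to 50 after the start, TGACNNNGC stood in 11 of 35 proteasome promoters (31.4%) and in 13.6% of all 27305 promoters of the table. CCGGAAG stood in 11 of 35 (31.4%), against 10.7% of all promoters and 14.2% of the 15843 of protein-coding genes. ATTGG stood in 17 of 35 (48.6%, against 35.7% of all), and GCGCATGCG, bound by the nuclear respiratory factor NRF1, in 1 of 35 (2.86%, against 2.10%). Each search covered both strands, and overlapping matches were counted once per promoter. The median HET against WT log2 fold change was 0.49 over the 10 tested genes with TGACNNNGC and 0.45 over the 30 without a match or a promoter.

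Libraries held 44504068 to 54377639 counts, so all values below rest on deep libraries, and levels are given as CPM, counts scaled to a fixed library size after TMM adjustment. The 293T check list had 5 of 7 genes matched, with EYA1 at 11.0 to 34.9 CPM, while NEFM and PAX2 stayed at or below 2.65 CPM. Summed markers of haematopoietic cells ran from 1.35 to 3.01 CPM, of endothelial cells from 0.07 to 0.79, of hepatocytes from 0.07 to 1.10 and of fibroblasts from 4.05 to 44.2, highest in a HET clone. FLCN itself, at 23.7 to 64.0 CPM, does not check the labels, because the edit replaces a base. In 3 clones the 135 genes between the end of chromosome 17 and FLCN, FLCN included, stood apart from the median of the 13 clones: by -0.66 in WT 2, -0.61 in HOM 1 and 0.41 in HET 2 (median log2 difference), against -0.10 to 0.16 in the others. The number of edited copies in HOM 1 is therefore uncertain, and results are also given without these 3 clones.

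In the 7 HET clones, proteasome genes had higher levels than in the 4 WT clones throughout the complex, without any single gene passing the test. All 40 genes had a fitted log2 fold change above 0, where 50.8% of all genes tested did. Their median was 0.47, against 0.01 over all genes, and the range ran from 0.14 for PSMD7 to 0.74 for PSMD14. With an adjusted p under 0.05 in edgeR's quasi-likelihood test, 0 of 40 were called, where 26 of 20320 genes were (0.128%). In simulated data this test recovered 5.97% of genes given a log2 fold change of 0.5 in size. The 0 calls thus do not show unchanged levels. At an unadjusted p under 0.05, 34 of 40 were higher in HET and 0 were lower, where 9.73% of all genes were higher at that level. The genes were chosen with results of these data known, so these shares are a description of the list. In libraries from bulk cultures, fewer cells of a kind and less RNA per cell cannot be told apart.

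Averaged over the 40 genes on the log2 CPM scale, the level was 7.09 in WT 1, 6.74 in WT 2, 6.59 in WT 3 and 6.47 in WT 4. In the HET clones it was 7.16, 7.19, 7.27, 7.27 and 7.22 in HET 1 to HET 5, 6.97 in HET 6 and 7.28 in HET 7. The HOM clones had 7.18 and 7.21. The genotype means were 6.72 ± 0.27 (SD, n = 4), 7.19 ± 0.11 (SD, n = 7) and 7.19 ± 0.02 (SD, n = 2). WT 1 lay above HET 6 and just below the other HET clones, so the WT and HET ranges overlapped by these clones, while WT 2, WT 3 and WT 4 lay below every edited clone. Both HOM clones lay inside the HET range.

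**Figure D1:**
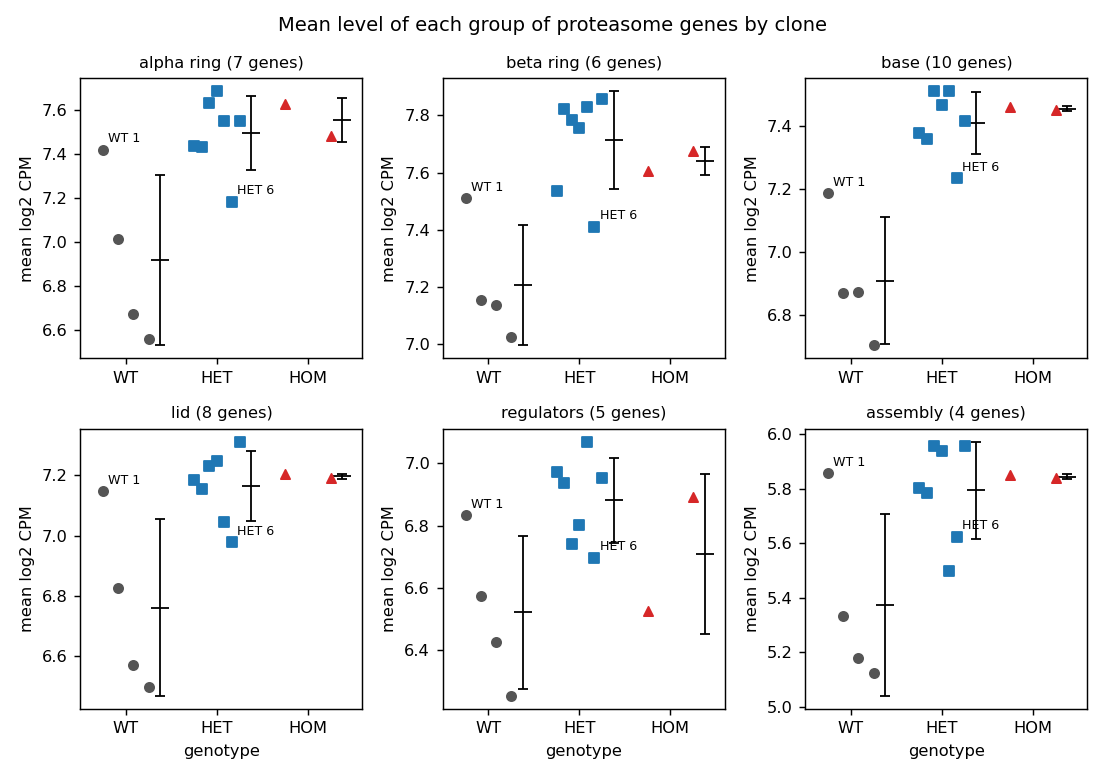
Mean log2 CPM of each group of proteasome genes (y axis) in each clone, by genotype (x axis): circles WT, squares HET, triangles HOM, with the mean and SD of the clones as a bar at the right of each set. WT 1 and HET 6 are labelled; over all 40 genes WT 1 (7.09) lies above HET 6 (6.97), while the other 3 WT clones are the lowest of the 13.

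WT 1 was the highest WT clone for 34 of the 40 genes, where 34.0% of all genes have WT 1 above the other 3 WT clones. Its level was 1.40 times the median of the other WT clones in the median gene, from 0.87 for PSMD4 to 2.61 for PSMA3. WT 4 was the lowest WT clone for 29 genes, and HET 6 was the lowest HET clone for 22 and the highest for 0. The matching shares of all genes were not taken for WT 4 and HET 6. In both clones the median log2 deviation of expressed protein-coding genes was 0 or lower on each chromosome examined. Groups did not overlap, with HET higher, for 7 of 40 genes (1.23% of all genes): PSMB1, PSMB4, PSMC4, PSMD2, ADRM1, PSMD3 and PSMD13. Without WT 1 this held for 28 of 40 (6.01% of all genes). Without any other single clone it held for 7 to 11 (1.33% to 3.75% of all genes), with 11 and 3.75% without HET 6. Refitted without WT 1, edgeR called 27 of the 40 genes higher in HET at an adjusted p under 0.05 (7.14% of all genes), and without HET 6 it called 16 (7.74%). Leaving out any other single clone gave 0 calls among the 40 genes and 0 to 2 among all genes.

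The tool also moved the number of calls. DESeq2 called 16 of 40 genes in HET against WT (4.98% of all genes) and limma voom with sample weights called 32 (20.8%), all higher in HET. With the median of each chromosome in each clone removed, edgeR called PSMC4, PSMD2 and PSMD3 (0.846% of all genes), and among genes with a mean CPM of at least 1 it called PSMC4 and PSMD3 (0.362%). Without WT 2, HET 2 and HOM 1, edgeR called 0, and 40 of 40 fold changes stayed above 0. With 1 surrogate variable in the model the median fell to 0.27 and 38 of 40 stayed above 0, with PSMD7 (-0.19) and PSMF1 (-0.0023) the exceptions. That variable was high in WT 2 (0.32), WT 3 (0.43), WT 4 (0.44) and HET 6 (0.35), the clones with the lowest proteasome levels, and between -0.37 and 0.02 in the other 9. The share of counts in long intergenic RNAs was 0.444% to 0.482% in those WT clones and 0.440% in HET 6, against 0.389% in WT 1 and 0.247% to 0.348% in the other HET clones, but it was highest in HOM 1 (0.532%), which had a high proteasome level. The part of this share in the result was not tested.

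**Figure D2:**
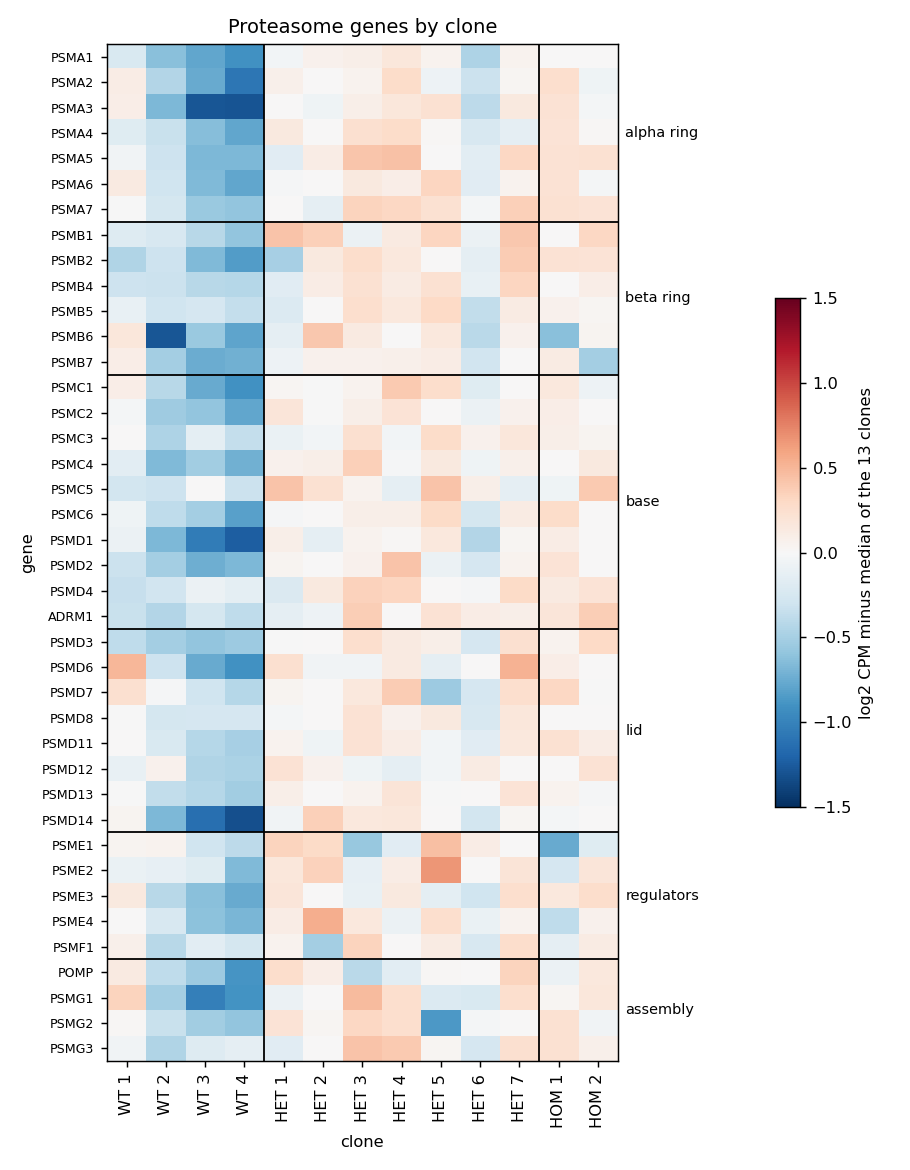
Log2 CPM of each of the 40 genes minus its median over the 13 clones (colour, blue lower and red higher), with genes in rows by group and clones in columns by genotype. WT 2, WT 3 and WT 4 are blue in most genes, WT 1 is close to the HET and HOM clones, and single dark cells such as PSMG2 in HET 5 (12.4 CPM) break the pattern of their group.

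The 7 genes of the alpha ring had a median log2 fold change of 0.52 in HET against WT, and all 7 had an unadjusted p under 0.05. Their mean log2 CPM was 6.92 ± 0.39 (SD, n = 4) in WT and 7.497 ± 0.17 (SD, n = 7) in HET. PSMA1, an alpha subunit, had 181, 137, 123 and 113 CPM in WT 1 to WT 4, 154 to 238 CPM with a median of 220.2 in HET, and 212 CPM in each HOM clone. Of the HET clones HET 6 (154 CPM) alone lay below WT 1, and both HOM clones lay above all WT clones. The log2 fold change of PSMA1 was 0.61 (edgeR, SE 0.15 and adjusted p 0.0759) in HET and 0.61 (edgeR, SE 0.19 and adjusted p 0.233) in HOM. PSMA3 varied most of the 40 genes, with an SD of 0.54 in log2 CPM over the 13 clones. It had 141 CPM in WT 1 but 82.0, 54.0 and 53.2 CPM in WT 2, WT 3 and WT 4, 99.8 to 154 CPM with a median of 139 in HET, and 152 and 128 CPM in HOM. WT 1 thus lay within the edited clones and the other 3 below all of them. The log2 fold change of PSMA3 in HET was 0.70 (edgeR, SE 0.23 and adjusted p 0.138). PSMA3 has an antisense gene and a pseudogene in the table, and the strand setting of the counting was not given in the sources used here.

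Among the beta subunits without a catalytic site, PSMB1 had 167, 161, 142 and 126 CPM in WT 1 to WT 4, 178 to 255 CPM with a median of 238 in HET, and 190.0 and 236 CPM in HOM. All 9 edited clones lay above all WT clones, with a log2 fold change of 0.57 (edgeR, SE 0.14 and adjusted p 0.0773) in HET and 0.51 (edgeR, SE 0.18 and adjusted p 0.255) in HOM. PSMB4 had a narrow WT range below all edited clones: 251, 249.99, 234 and 232 CPM in WT, 278 to 389 CPM with a median of 339.5 in HET, and 312 and 335 CPM in HOM. It had the smallest SD of log2 CPM over the WT clones (0.06), WT 1 lay with the other WT clones, and the log2 fold change was 0.48 (edgeR, SE 0.11 and adjusted p 0.0759) in HET. PSMB4 lies on chromosome 1, whose median log2 deviation was -0.30 in WT 1 and at or near 0 in the other WT clones. PSMB4 itself deviated by -0.31 in WT 1 and by -0.32 to -0.43 in the others. The part of the chromosome was not tested. PSMB2 had 159, 176, 138 and 122 CPM in WT, 154 to 285 CPM with a median of 242 in HET, and 254 and 252 CPM in HOM. Only HET 1, at 154 CPM, lay within the WT range, and the log2 fold change of PSMB2 was 0.62 (edgeR, SE 0.16 and adjusted p 0.0884) in HET and 0.76 (edgeR, SE 0.21 and adjusted p 0.206) in HOM.

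The 3 catalytic subunits were less alike. PSMB5, which carries the chymotrypsin-like site, had 187, 163, 169 and 157 CPM in WT, 155 to 247 CPM with a median of 218 in HET, and 210.2 and 206 CPM in HOM. HET 1 (174 CPM) and HET 6 (155 CPM) overlapped the WT clones, and its log2 fold change of 0.30 (edgeR, SE 0.13 and adjusted p 0.239) in HET was the smallest of the 13 core genes. PSMB7, the trypsin-like subunit, had 177, 116, 98.3 and 100.2 CPM in WT, 135 to 179 CPM with a median of 172 in HET, and 180.1 and 116 CPM in HOM. The HOM clones of PSMB7 were far apart, and HOM 2 lay within the WT range. The log2 fold change of PSMB7 was 0.42 (edgeR, SE 0.17 and adjusted p 0.203) in HET and 0.27 (edgeR, SE 0.23 and adjusted p 0.587) in HOM, and the HOM value was -0.070 without HOM 1.

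PSMB6, the caspase-like subunit, lies on chromosome 17 in the same stretch and had the widest ratio of highest to lowest clone, 3.20. It had 168, 61.4, 101 and 86.3 CPM in WT, 113 to 197 CPM with a median of 156 in HET, and 96.3 and 154 CPM in HOM. WT 2 was the lowest clone, followed by WT 4 and HOM 1, and HET 2 was the highest. HOM 1 lay below every HET clone and within the WT range. Set against the median of the other 12 core genes of the same clone, PSMB6 had a log2 difference of -0.97 in WT 2, -0.84 in HOM 1, 0.37 in HET 2 and 0.25 in WT 1. The other 9 clones ran from -0.20 to 0.10. PSMB6 made up 18.04% of the summed CPM of the 3 catalytic genes in WT 2 and 19.8% in HOM 1, against 25.1% to 34.5% in the other 11 clones. The log2 fold change of PSMB6 was 0.57 (edgeR, SE 0.23 and adjusted p 0.211) in HET and 0.26 (edgeR, SE 0.31 and adjusted p 0.705) in HOM. Without HOM 2, which leaves HOM 1 alone in its group, the HOM value was -0.12.

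**Figure D3:**
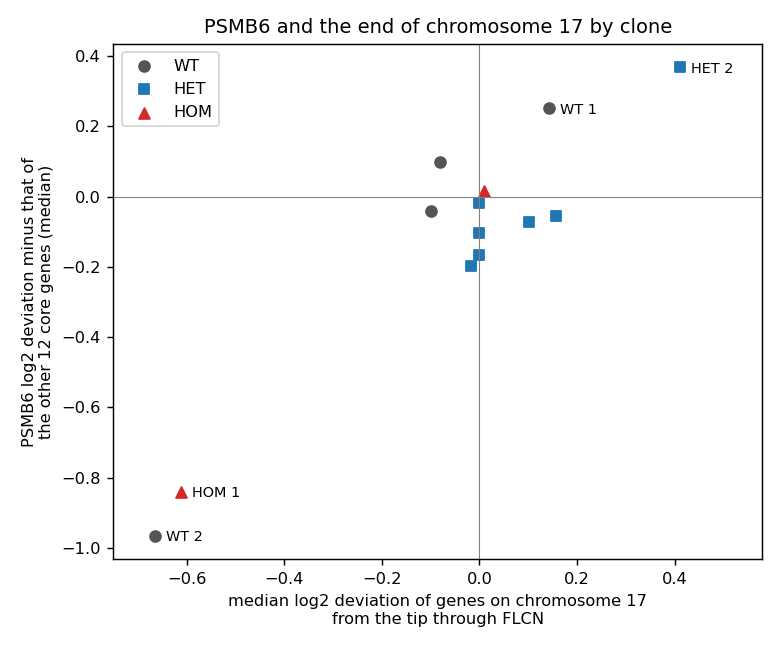
Each point is 1 clone: on the x axis the median log2 deviation of 135 genes between the end of chromosome 17 and FLCN, PSMB6 included, and on the y axis the log2 deviation of PSMB6 minus the median of the other 12 core genes. WT 2 (-0.66, -0.97) and HOM 1 (-0.61, -0.84) lie at the lower left and HET 2 (0.41, 0.37) at the upper right.

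In the base of the regulatory particle all 10 genes had an unadjusted p under 0.05 in HET against WT, with a median log2 fold change of 0.50. PSMC4, an ATPase of the base ring, had 107, 75.7, 83.7 and 73.0 CPM in WT, 115 to 154 CPM with a median of 126 in HET, and 120.2 and 133 CPM in HOM. All edited clones lay above all WT clones, and the log2 fold change was 0.60 (edgeR, SE 0.12 and adjusted p 0.0678) in HET and 0.58 (edgeR, SE 0.17 and adjusted p 0.216) in HOM. PSMD2, a scaffold that holds ubiquitin-like domains, had 266, 234, 201 and 208 CPM in WT, 278 to 446 CPM with a median of 341 in HET, and 384 and 334 CPM in HOM. Here too the WT clones did not overlap the edited clones, and the log2 fold change was 0.60 (edgeR, SE 0.13 and adjusted p 0.0708) in HET and 0.66 (edgeR, SE 0.18 and adjusted p 0.201) in HOM. ADRM1, a ubiquitin receptor, was among the genes of lowest level, with 34.3, 31.96, 36.1 and 33.3 CPM in WT, 39.4 to 55.8 CPM with a median of 46.0 in HET, and 49.1 and 56.0 CPM in HOM. The 4 WT clones of ADRM1 lay close together and below every edited clone. Its log2 fold change was 0.44 (edgeR, SE 0.12 and adjusted p 0.101) in HET and 0.63 (edgeR, SE 0.16 and adjusted p 0.188) in HOM. PSMD4, the other ubiquitin receptor, had WT 1 as its lowest WT clone (166 CPM, against 173 to 199), unlike most of the list. It lies on chromosome 1 and deviated by -0.35 in WT 1, where the chromosome median was -0.30. The log2 fold change of PSMD4 was 0.35 (edgeR, SE 0.12 and adjusted p 0.160) in HET. The scaffold PSMD1 had 266, 178, 137 and 120.1 CPM in WT and 209.7 to 318 CPM in HET, so that WT 1 lay among the HET clones.

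The lid had the lowest median of the 6 groups in HET against WT, 0.34, and 5 of its 8 genes had an unadjusted p under 0.05. It held both ends of the list. PSMD14, the deubiquitinase, had 155, 94.5, 68.9 and 60.7 CPM in WT, 125 to 193 CPM with a median of 155 in HET, and 148 and 152 CPM in HOM. WT 1 sat at the HET median and the other WT clones below every edited clone, with a log2 fold change of 0.74 (edgeR, SE 0.21 and adjusted p 0.106) in HET. PSMD7, its partner in the lid, had 137, 114, 93.4 and 85.9 CPM in WT and 79.2 to 151 CPM in HET, a full overlap, with a log2 fold change of 0.14 (edgeR, SE 0.17 and adjusted p 0.705). PSMD3, a scaffold subunit of the lid, had the lowest p of the list in both comparisons with WT. It had 88.5, 80.9, 76.4 and 79.4 CPM in WT, 96.9 to 138 CPM with a median of 123 in HET, and 119.6 and 142 CPM in HOM. No edited clone reached down to the WT range, and the log2 fold change was 0.58 (edgeR, SE 0.12 and adjusted p 0.0636) in HET and 0.68 (edgeR, SE 0.15 and adjusted p 0.183) in HOM. PSMD8 varied least of the 40, with an SD of 0.17 over the 13 clones. It had 155, 129.8, 131 and 131 CPM in WT, 132 to 181 CPM with a median of 163 in HET, and 156 CPM in each HOM clone. The log2 fold change of PSMD8 was 0.24 (edgeR, SE 0.11 and adjusted p 0.252) in HET.

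The other activators and the inhibitor had a median log2 fold change of 0.38 in HET against WT, and 3 of 5 had an unadjusted p under 0.05. PSME1 and PSME2, the subunits of the interferon-inducible activator PA28, were lower than the core genes, at 32.4 to 74.9 CPM and 30.6 to 76.2 CPM over all clones. PSME1 had 56.4, 56.8, 44.7 and 41.8 CPM in WT, 37.1 to 74.9 CPM with a median of 59.2 in HET, and 32.4 and 48.3 CPM in HOM. HOM 1 was the lowest of the 13 clones, and the log2 fold change was 0.24 (edgeR, SE 0.18 and adjusted p 0.515) in HET and -0.31 (edgeR, SE 0.26 and adjusted p 0.582) in HOM, the only value below 0 in the list. It was 0.022 without WT 2, HET 2 and HOM 1. PSME4, the activator PA200, had 185, 156, 120.4 and 115 CPM in WT, 172 to 269 CPM in HET, and 142 and 194 CPM in HOM. HOM 1 lay among the WT clones for PSME4. PSME3, the nuclear form of PA28, had 291, 198, 171 and 156 CPM in WT and 214 to 313 CPM in HET, with a log2 fold change of 0.38 (edgeR, SE 0.16 and adjusted p 0.231). PSMF1, the inhibitor PI31, had 142, 100.4, 120.3 and 111 CPM in WT and 94.4 to 169 CPM in HET, and its groups overlapped (log2 fold change 0.21, edgeR SE 0.15 and adjusted p 0.495).

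The assembly factors had a median log2 fold change of 0.39 in HET against WT, and 3 of 4 had an unadjusted p under 0.05. POMP, the maturation protein of the core, had 126, 88.8, 78.9 and 62.6 CPM in WT, 87.3 to 145 CPM with a median of 117 in HET, and 108 and 129 CPM in HOM. PSMG1 and PSMG2, which pair as a chaperone of the alpha ring, differed in level: PSMG1 had 106, 59.2, 41.1 and 45.2 CPM in WT and 71.9 to 117 CPM in HET, while PSMG2 had 14.9 to 22.8 CPM in WT and 12.4 to 28.0 CPM in HET. In each of POMP, PSMG1 and PSMG2, WT 1 was the highest WT clone and overlapped the HET clones. PSMG3, a partner in the second chaperone pair, had 37.0, 28.1, 33.6 and 35.1 CPM in WT and 32.2 to 51.8 CPM in HET.

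**Figure D4:**
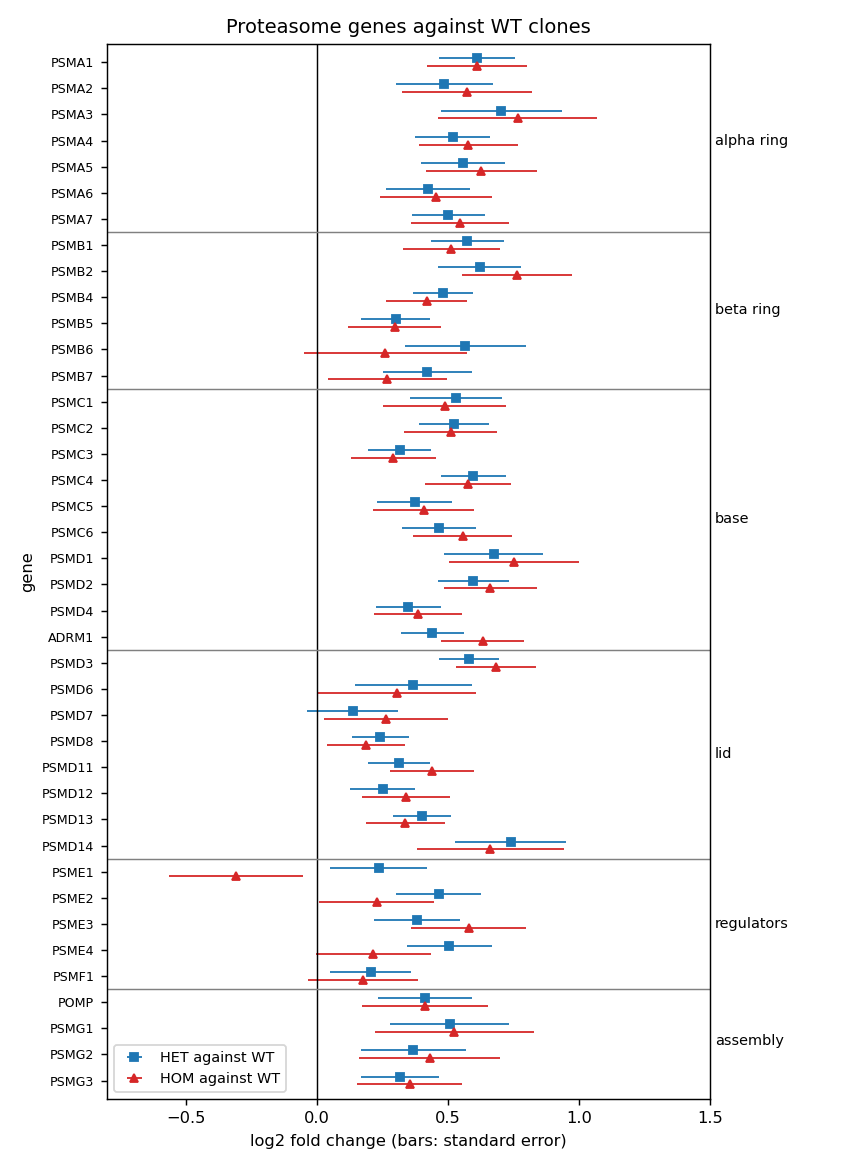
Log2 fold change (x axis) of each of the 40 genes by group (y axis) for HET against WT (blue squares) and HOM against WT (red triangles), with standard errors as bars. All 40 HET values lie above 0, from 0.14 for PSMD7 to 0.74 for PSMD14, and PSME1 in HOM (-0.31) is the only value below 0; both comparisons share the 4 WT clones.

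The 2 HOM clones were compared with the same 4 WT clones, so the comparisons share their controls and their values are given side by side only. The median log2 fold change of the 40 genes in HOM was 0.45 (all genes, -0.01), and 39 of 40 were above 0, where 49% of all genes were. In edgeR, 0 of 40 were called at an adjusted p under 0.05, as were 0 of 20320 genes (0%). In simulated data for this comparison, edgeR recovered 0% of genes given a log2 fold change of 0.5 in size. The 0 calls do not show unchanged levels here either. At an unadjusted p under 0.05, 21 of 40 were higher and 0 lower, where 7.52% of all genes were higher. DESeq2 called ADRM1, PSMD2 and PSMD3 (1.71% of all genes), and limma voom called 14 of 40 (2.94%). HOM clones both lay above all WT clones for 21 of 40 genes, where 12.8% of all genes did. Without WT 1 this held for 33 of 40 (22.9% of all genes), and edgeR then called 8 of 40 (1.22%). By group, the median HOM fold change was 0.58 in the alpha ring, 0.36 in the beta ring, 0.53 in the base, 0.34 in the lid, 0.22 in the other regulators and 0.42 in the assembly factors.

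Between HOM and HET the proteasome genes showed little difference. The median log2 fold change was 0.02 (all genes, -0.03), and 21 of 40 were above 0 (45.1% of all genes). For 29 of 40 both HOM clones lay inside the HET range, but the share over all genes was not taken. In edgeR, 0 of 40 were called, as were 0 of 20320 genes (0%), and 1 gene had an unadjusted p under 0.05 (2.8% of all genes). DESeq2 (0.0738% of all genes) and limma voom (0.00492%) also called 0 of the 40. The gene was PSME1, named after its value was seen, with a log2 fold change of -0.54 (edgeR adjusted p 1.00). These values do not show that HOM and HET levels are alike: with 2 HOM clones the standard error of the difference was 0.14 even for PSMD3, whose value was 0.10.

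Some of the spread among HET clones followed the chromosome on which a gene lies. HET 5 had a median log2 deviation of 0.29 over the genes of chromosome 14, and it was the highest HET clone for 6 of the 7 proteasome genes there (PSMA3, PSMA6, PSMB5, PSMC6, PSME1 and PSME2), with PSMC1 the exception. The 4 genes on chromosome 1, PSMA5, PSMB2, PSMB4 and PSMD4, were all lowest of the HET clones in HET 1, where that chromosome had a median of -0.25. In WT 1 chromosome 1 had a median of -0.30, and the 4 genes had a median deviation of -0.33. Their median deviation was -0.31, -0.54 and -0.55 in WT 2, WT 3 and WT 4, where the chromosome median was at or near 0. WT 1 was the highest WT clone for 2 of the 4 genes and the lowest for 1. PSMG2 on chromosome 18 had 12.4 CPM in HET 5 against 22.1 to 28.0 CPM in the other HET clones, and the chromosome median of HET 5 was -0.78. PSMD7 on chromosome 16 had 79.2 CPM in HET 5, the lowest of the 13 clones, with a chromosome median of -0.52. POMP on chromosome 13 was lowest among HET clones in HET 3 (87.3 CPM) and HET 4 (103 CPM), whose chromosome medians were -0.36 and -0.33. PSMD14 and PSME4 on chromosome 2 were highest in HET 2 (193 and 269 CPM), where the chromosome median was 0.28. PSMD1, the third gene on that chromosome, did not follow, with a deviation of -0.14 and 258 CPM in HET 2, below all other HET clones but HET 6. PSMB1 did not follow its chromosome either: it lay 0.40 above the median of the 13 clones in HET 7, although chromosome 6 had a median of -0.35 in that clone. No chromosome median was above 0 in WT 4 (-0.30 to 0) or in HET 6 (-0.20 to 0). Removing the medians therefore also took out a shift shared by most chromosomes in these clones. With the chromosome medians removed from every clone, all 40 HET fold changes were still above 0, but their median was 0.39 where it had been 0.47. In edgeR 30 of the 40 then had an unadjusted p under 0.05, where 34 had before. The part of the chromosomes in the result was not tested.

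The highest and the lowest WT clone lay further apart than the WT and HET means. Averaged over the 40 genes, WT 1 lay 0.62 above WT 4 in log2 CPM, while the HET mean lay 0.47 above the WT mean. A distance between extreme clones and a difference of means are unlike measures. The SD of that average was 0.27 over the WT clones and 0.17 pooled over clones within genotype, both smaller than 0.47. The SD of log2 CPM over the WT clones had a median of 0.27 over the 40 genes (0.33 over all genes tested), and over the HET clones it was 0.20 (0.37 over all genes). It was larger in WT than in HET for 25 of 40 genes, where this held for 40.2% of all genes. The genes tested include many of low level, while all 40 proteasome genes had a mean of at least 21.5 CPM. For the 13 core genes the mean log2 CPM ran from 6.78 to 7.46 in WT clones and from 7.29 to 7.72 in HET clones.

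Core subunits enter the barrel in equal numbers, so their levels were also compared per kilobase of the principal transcript, as means over the 13 clones. PSMB4 was highest with 317 CPM per kb ± 55.7 (SD, n = 13), followed by PSMB1 with 214 ± 46.9. The 3 catalytic genes had near-equal means, 158 for PSMB6, 152 for PSMB7 and 152 for PSMB5, and these neighbours did not differ beyond their spread. PSMA7 (145), PSMA6 (129), PSMA1 (126), PSMA3 (123) and PSMA2 (112) followed. The lowest were PSMB2 (77.1), PSMA4 (70.4) and PSMA5 (40.5 ± 9.68, SD, n = 13). The order depends on the transcript taken as the length: over the union of all annotated exons PSMB2 had 43.0 CPM per kb, and outside the core PSME3 moved from 254 to 56.2. Named pseudogenes of 9 of the 40 genes are rows of the table, and how reads that align to several places were counted was not given in the sources used here; levels of such genes are uncertain.

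**Figure D5:**
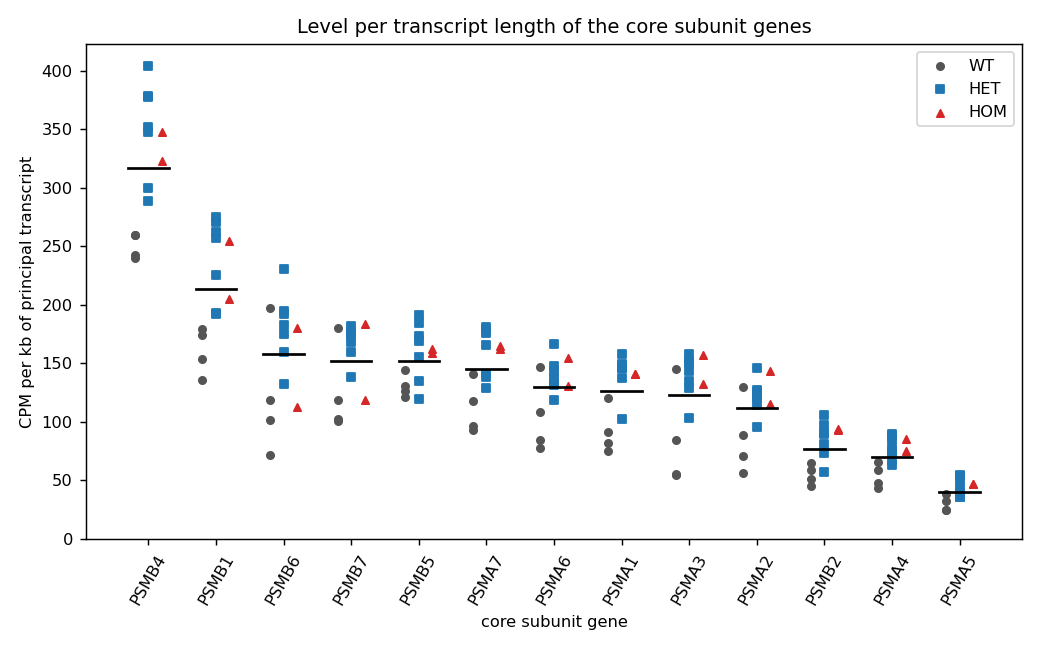
CPM per kilobase of principal transcript (y axis, from 0) for the 13 analysed core subunit genes (x axis, in order of their mean), with 1 point per clone (circles WT, squares HET, triangles HOM) and a line at the mean of the 13 clones. PSMB4 (317) and PSMB1 (214) lie above the rest, and PSMA5 (40.5) is lowest.

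Of 38 other genes of the pathway, 36 were tested, and in edgeR 0 were called in each of the 3 comparisons. In HET against WT, 23 of 36 were above 0 (50.8% of all genes) with a median log2 fold change of 0.10, and 7 were higher (9.73% of all genes) and 2 lower at an unadjusted p under 0.05. In HOM against WT, 19 of 36 were above 0 (49% of all genes) with a median of 0.02, and 4 were higher (7.52% of all genes) and 0 lower at that level, shares near those of all genes. The interferon-inducible catalytic subunits PSMB8 and PSMB9 were barely detected, at or below 0.49 and 1.02 CPM. PSMB10, the third of them, had 4.63 to 5.90 CPM in WT, 4.42 to 9.68 CPM in HET and 7.61 and 8.56 CPM in HOM (log2 fold change in HOM 0.64, edgeR SE 0.28 and adjusted p 0.316). PSMG4, the partner of PSMG3, had 4.63 to 7.65 CPM in WT, 6.55 to 10.9 CPM in HET, and 13.1 and 9.92 CPM in HOM. Both HOM clones lay above all WT clones, with a log2 fold change of 1.00 (edgeR, SE 0.27 and adjusted p 0.201), the largest increase of the 36.

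Among the factors that bring substrates to the proteasome, UBQLN4, a shuttle receptor, had 109, 106, 103 and 101 CPM in WT, 109 to 231 CPM in HET with HET 1 at the WT level, and 157 CPM in each HOM clone. Its log2 fold change was 0.56 (edgeR, SE 0.16 and adjusted p 0.111) in HET and 0.58 (edgeR, SE 0.22 and adjusted p 0.267) in HOM. UBQLN1 had 254, 199, 158 and 152 CPM in WT and 199.6 to 287 CPM in HET, with WT 1 inside the HET range, as for most subunits. UCHL5, the deubiquitinase that binds ADRM1, had 155, 146, 106 and 104 CPM in WT, 125 to 220.2 CPM in HET, and 181 and 188 CPM in HOM. The ubiquitin gene UBB, which like PSMB6 lies in the stretch of chromosome 17 up to FLCN, had 884, 596, 809 and 751 CPM in WT, 916 to 1146 CPM in HET, and 693 and 935 CPM in HOM. WT 2 and HOM 1 were the lowest clones for UBB.

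The mRNA of NFE2L1, the activator of subunit genes, was not higher in the edited clones. It had 211, 237, 257 and 243 CPM in WT, 160.5 to 247 CPM in HET, and 199 and 208 CPM in HOM. WT 1, the WT clone with the highest subunit levels, had the lowest NFE2L1 level of the WT clones. The log2 fold change of NFE2L1 was -0.12 (edgeR, SE 0.12 and adjusted p 0.607) in HET and -0.22 (edgeR, SE 0.17 and adjusted p 0.548) in HOM. NFE2L1 acts after cleavage of its protein, so its mRNA level does not measure its activity. MAFK, a small MAF partner of NFE2L1, was at 0.584 to 1.27 CPM in all clones, with both HOM clones (1.13 and 1.27 CPM) above every HET clone (HOM against HET log2 fold change 0.58, edgeR SE 0.30 and adjusted p 1.00).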

How the data were processed

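RNA sequencing of 13 clones (4 WT, 7 HET and 2 HOM) was analysed from a table in which the authors deposited raw counts per gene. Per the submitters' processing notes, they used Trimmomatic 0.36, STAR and featureCounts 1.5.3 with hg19; annotation, strand setting and treatment of multiply aligned reads were not given in the sources used here. Symbols, chromosomes and transcript lengths came from GENCODE 29, another build, and promoters from RefSeq. Genes were kept by filterByExpr in edgeR 4.0.16 (20320 kept), with TMM factors and quasi-likelihood tests, robust and two-sided, over all 13 libraries, Benjamini-Hochberg adjustment over all genes and a threshold of 0.05. Log2 CPM used a prior count of 2, and chromosome medians used genes with a mean log2 CPM above 3. Depth was 44504068 to 54377639 counts per library. No library was a duplicate: even the most alike (WT 3 with WT 4) had a chi-square per gene of 19.8.

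Replicate numbers only name clones. Values in every clone were given for the catalytic subunits, for the 6 genes of lowest p in each comparison with WT, and for those of largest and smallest spread; other pathway genes were the 4 of lowest p in each comparison and NFE2L1. Some genes are left unreported. Further genes with values by clone were chosen after their values were seen. Alternatives were DESeq2 1.42.0, RLE factors, no filter, a mean CPM of at least 1, only the groups compared, limma voom 3.58.1, 1 surrogate variable (sva 3.50.0), chromosome medians removed, each library left out and, chosen after seeing the data, 3 clones left out. The members and lists were chosen with earlier results of these data known. The fit was tested on simulated data with 200 changed genes. At a log2 fold change of 0.5 in size, edgeR recovered 5.97% of changed genes in HET against WT and 0% in HOM against WT. At 1 it recovered 50.7% and 19.4%, and at 2 it recovered 87.9% and 80.3%. False calls numbered 8 and 0.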

Additional observations from a re-analysis of the deposited data

Results flagged for a closer look

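In 80 sets of values (40 genes in the WT and in the HET clones), 5 held a clone that stood far from the rest of its group, where chance gives about 4 (1 in 20). PSMA1 had 154.3 CPM in HET 6, against 207 to 238 CPM in the other HET clones. PSMC5, an ATPase of the base, had 151.9 CPM in WT 3, against 121 to 125 CPM in the other WT clones. PSMD2 had 446 CPM in HET 4, against 278 to 347 CPM, and the median of chromosome 3 in that clone was 0.01. PSMD8 had 155 CPM in WT 1, against 129.8 to 131 CPM in the other WT clones. PSMG2 had 12.4 CPM in HET 5, against 22.1 to 28.0 CPM, in the clone whose chromosome 18 median was -0.78.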

How the results depend on the processing

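Calls are adjusted p under 0.05. In HET against WT, where edgeR called 0 proteasome genes, DESeq2 called 16, voom 32, the minimum mean CPM of 1 gave 2, removed chromosome medians gave 3, and leaving out 1 clone gave 0 to 27. Of 36 other pathway genes DESeq2 called 2 (4.98% of all genes) and voom 10 (20.8%), and leaving out 1 clone gave 0 to 3. The median of 0.47 became 0.63 with voom and 0.27 with 1 surrogate variable, and ran from 0.35 to 0.62 with 1 clone left out. In HOM against WT DESeq2 called 3 proteasome genes, voom 14, and leaving out 1 clone gave 0 to 8; of other pathway genes DESeq2 (1.71% of all genes) and voom (2.94%) called 1 each, and leaving out 1 clone gave 0 to 1. The median of 0.45 became 0.63 with voom, 0.23 with 1 surrogate variable, and 0.38 to 0.63 with 1 clone left out, the highest without WT 1. Single genes changed sign as follows. With 1 surrogate variable, PSMD7 (-0.19) and PSMF1 (-0.0023) did in HET, and PSMD8 (-0.023), PSMD7 (-0.14), PSMF1 (-0.070), PSMB7 (-0.083), PSMB6 (-0.10) and PSMD6 (-0.089) in HOM. With 1 clone left out, HOM values ran from -0.034 to 0.44 for PSME4, -0.013 to 0.44 for PSME2 and -0.12 to 0.59 for PSMB6, all lowest without HOM 2, and from -0.070 (without HOM 1) to 0.54 for PSMB7. With the 3 clones left out, PSME1 (0.022) and PSMB7 (-0.11) did. The causes were not tested. Where 1 HOM clone remained, it was assumed to vary like the other groups. Of the fits of single genes in HET, 782 kept direction and side of the threshold, 96 passed it and 2 changed sign. No paired analysis was possible because replicate numbers were given in accession order and only name clones. The clone names of WT 4, HET 7 and HOM 2 begin with the same number, as do those of WT 1 and WT 2, but its meaning was not stated and it served neither to pair clones nor as a batch. Depth does not limit these values, since all 40 genes had a mean of at least 21.5 CPM.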
